A study of Mus musculus and Homo sapiens with 65 samples.

Results

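The core pluripotency and Dppa genes were taken as 10 genes, chosen by symbol from the 32287 genes of each deposited table: Pou5f1, Sox2, Nanog, Nr5a2, Esrrb, Tfcp2l1, Prdm14, Zfp42, Dppa2 and Dppa4. They were followed in the 9 libraries of RNA from late 2-cell mouse embryos, out of 65 samples in the series. The groups were 3 wild-type libraries, 2 libraries of embryos treated with alpha-amanitin, a toxin that blocks RNA polymerase II, 2 libraries of embryos injected with mismatch control morpholinos, and 2 libraries of embryos injected with Kdm5a+b morpholinos. Morpholinos are antisense oligomers that block the translation or splicing of a transcript, and both morpholino groups were injected as zygotes at 0.5 days after conception with fluorescein-tagged oligomers and cultured to the late 2-cell stage. KDM5A and KDM5B are demethylases of lysine 4 of histone H3. The sources used here do not give the mouse strain of these libraries, the dose and route of alpha-amanitin or the number of embryos per library. The levels are FPKM, a count of fragments divided by the length of the transcript and by the library's total, and were therefore compared between genes as well as between libraries. The labels do not say whether libraries of a group came from separate collections of embryos, and part of the spread behind the p-values may be technical.

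In embryonic stem cells and the epiblast, OCT4 (from Pou5f1), SOX2 and NANOG bind one another's genes and hold a network of transcription factors in place. Esrrb and Nr5a2 encode orphan nuclear receptors of that network, Tfcp2l1 a grainyhead-like factor downstream of leukaemia inhibitory factor, Prdm14 a PR-domain protein that restrains DNA methylation and differentiation signals, and Zfp42 the zinc finger protein REX1. Dppa2 and Dppa4 are neighbouring genes for SAP-domain proteins that act as partners on chromatin and promote the transcription of early embryonic genes. The late 2-cell embryo lies between the egg, whose stored RNA is being cleared, and the blastocyst, in which the pluripotent epiblast forms, so a transcript seen at this stage can be stored or newly made.

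Of the 10 genes, 7 had an entry in the RefSeq promoter table (build GRCm38.p6): Pou5f1, Sox2, Nanog, Nr5a2, Esrrb, Tfcp2l1 and Zfp42. The sequence ahead of the start is printed 5′ to 3′ for 3 of them. Nr5a2 and Esrrb are shown because both encode nuclear receptors and both fell when transcription was blocked, and Pou5f1 is shown because it did not fall. Capitals mark matches of letters on either strand: GGGCGG of the GC box, AGGTCA of the nuclear receptor element and TATAAA of the TATA box.
Pou5f1, chr17:35505782-35506017, plus strand: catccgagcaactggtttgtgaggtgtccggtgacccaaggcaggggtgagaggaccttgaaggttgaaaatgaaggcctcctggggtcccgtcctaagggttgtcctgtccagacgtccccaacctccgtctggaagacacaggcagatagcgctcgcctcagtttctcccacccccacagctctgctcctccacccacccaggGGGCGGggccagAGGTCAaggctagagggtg
Nr5a2, chr1:136960449-136960698, minus strand: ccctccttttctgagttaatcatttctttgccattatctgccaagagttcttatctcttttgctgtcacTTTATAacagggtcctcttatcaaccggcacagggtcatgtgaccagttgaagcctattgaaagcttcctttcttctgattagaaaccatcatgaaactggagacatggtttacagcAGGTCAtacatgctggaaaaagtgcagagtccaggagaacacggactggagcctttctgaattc
Esrrb, chr12:86360867-86361116, plus strand: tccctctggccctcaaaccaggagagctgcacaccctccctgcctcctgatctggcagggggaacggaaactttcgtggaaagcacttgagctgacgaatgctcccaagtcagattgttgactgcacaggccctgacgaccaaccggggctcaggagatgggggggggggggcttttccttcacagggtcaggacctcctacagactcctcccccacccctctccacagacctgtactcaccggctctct
The Pou5f1 sequence ends at the base before the gene's start in the files, which lies 14 bases ahead of the RefSeq start.

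In the 250 bases before each start, AGGTCA was found on either strand in 4 of the 7 genes (Pou5f1, Sox2, Nanog and Nr5a2), against 14.0% of all 32851 promoter windows of that length. Counted from the RefSeq start, it lay 33 bases before in Pou5f1 and 64 bases before in Nr5a2. The GC box stood in 3 of the 7 (Pou5f1, Sox2 and Zfp42), against 32.7% of all windows, and TATAAA in 2 (Nr5a2 and Tfcp2l1), against 12.4%. In Tfcp2l1, TATAAA lay on the forward strand, 28 bases before the start. In Nr5a2 it lay on the reverse strand, 181 bases before the start, and is a match of letters only. The octamer ATGCAAAT, the sequence bound by OCT4 and its relatives, was found in Zfp42 alone, on the reverse strand, against 1.6% of all windows. GGATTA, a paired-like homeobox motif, was found in Nanog alone, against 6.25%, and the ETS motif CCGGAAG, whose core is bound by GABPA, in none of the 7, against 6.91%. The windows ranged from 43.2% G and C in Nr5a2 to 72.0% in Sox2, around a median of 52.4% over all windows. The Sox2 window held 27 CpG sites and that of Nr5a2 held 2. The RefSeq start of Sox2 lies 410 bases ahead of the gene's start in the files, so its window does not adjoin the quantified gene. No motif was common to the 4 matched genes that fell with alpha-amanitin (Sox2, Nr5a2, Esrrb and Zfp42), and the Esrrb window held none of the 6 motifs searched.

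The libraries had 10611 to 11228 genes at 1 FPKM or more, and 7977 and 7935 with alpha-amanitin. The 6 markers of the 2-cell embryo (Zscan4d, Zscan4c, Zfp352, Tcstv3, Tdpoz4 and Ubtfl1) summed to 202 to 298 FPKM in the 7 untreated or injected libraries and to 8.72 and 4.72 FPKM with alpha-amanitin. The 10 markers of the oocyte summed to 496 to 652 FPKM against 954 and 1060 FPKM. Of 10 cumulus and granulosa markers, Amhr2 stood at 7.12 to 12.0 FPKM in the 7 libraries and at 0.00683 and 0 FPKM with alpha-amanitin. No other gene of that list exceeded 1.14 FPKM in any library. The list summed to 8.67 to 13.5 FPKM against 0.55 and 0.36 FPKM. The 7 oviduct markers summed to 20.6 to 62.3 FPKM against 1.37 and 5.11 FPKM. Of these, Epcam, an epithelial adhesion gene, stood at 19.4 to 58.5 FPKM in the 7 libraries and at 0.108 and 0 FPKM with alpha-amanitin. No other oviduct marker exceeded 7.83 FPKM, the level of Ovgp1 in Kdm5a+b replicate 1. Sperm markers summed to at most 5.96 FPKM and blood markers to at most 11.3 FPKM in any library. In bulk embryos, fewer cells with a transcript and less of it per cell cannot be told apart, and the part of other cell types in the results was not tested. Of the morpholino targets, Kdm5a stood at 19.5 and 15.3 FPKM with Kdm5a+b morpholinos against 12.8 and 9.44 FPKM in the controls, and Kdm5b at 38.1 and 27.6 FPKM against 55.3 and 39.6 FPKM. Because a translation-blocking morpholino need not lower its mRNA, the label of the Kdm5a+b group is not checked by these levels.

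In wild-type embryos 7 of the 10 genes averaged 5.91 FPKM or more and 3 averaged under 1 FPKM. Nr5a2 was the most abundant at 17.5 ± 5.66 FPKM, followed by Pou5f1 at 15.4 ± 5.14 FPKM (SD, n = 3). Dppa4 stood at 10.8 ± 5.74 FPKM and Dppa2 at 8.80 ± 3.51 FPKM (SD, n = 3). Zfp42 stood at 6.67 ± 0.583 FPKM, Esrrb at 6.66 ± 0.810 FPKM and Sox2 at 5.91 ± 6.13 FPKM (SD, n = 3). The ranges of neighbours in this order overlapped from Nr5a2 down to Sox2, so these 7 genes were not separated step by step. Tfcp2l1, at 0.912 ± 0.554 FPKM, lay below Sox2 with no overlap, and Nanog, at 0.0393 ± 0.0379 FPKM, lay below Tfcp2l1 with no overlap (SD, n = 3). Prdm14 came last at 0.0283 ± 0.0489 FPKM (SD, n = 3), within the range of Nanog. Among all 32287 genes, the wild-type mean of Nr5a2 was at or above that of 91.0% of genes, and that of Nanog at or above 44.7%.

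**Figure D1:**
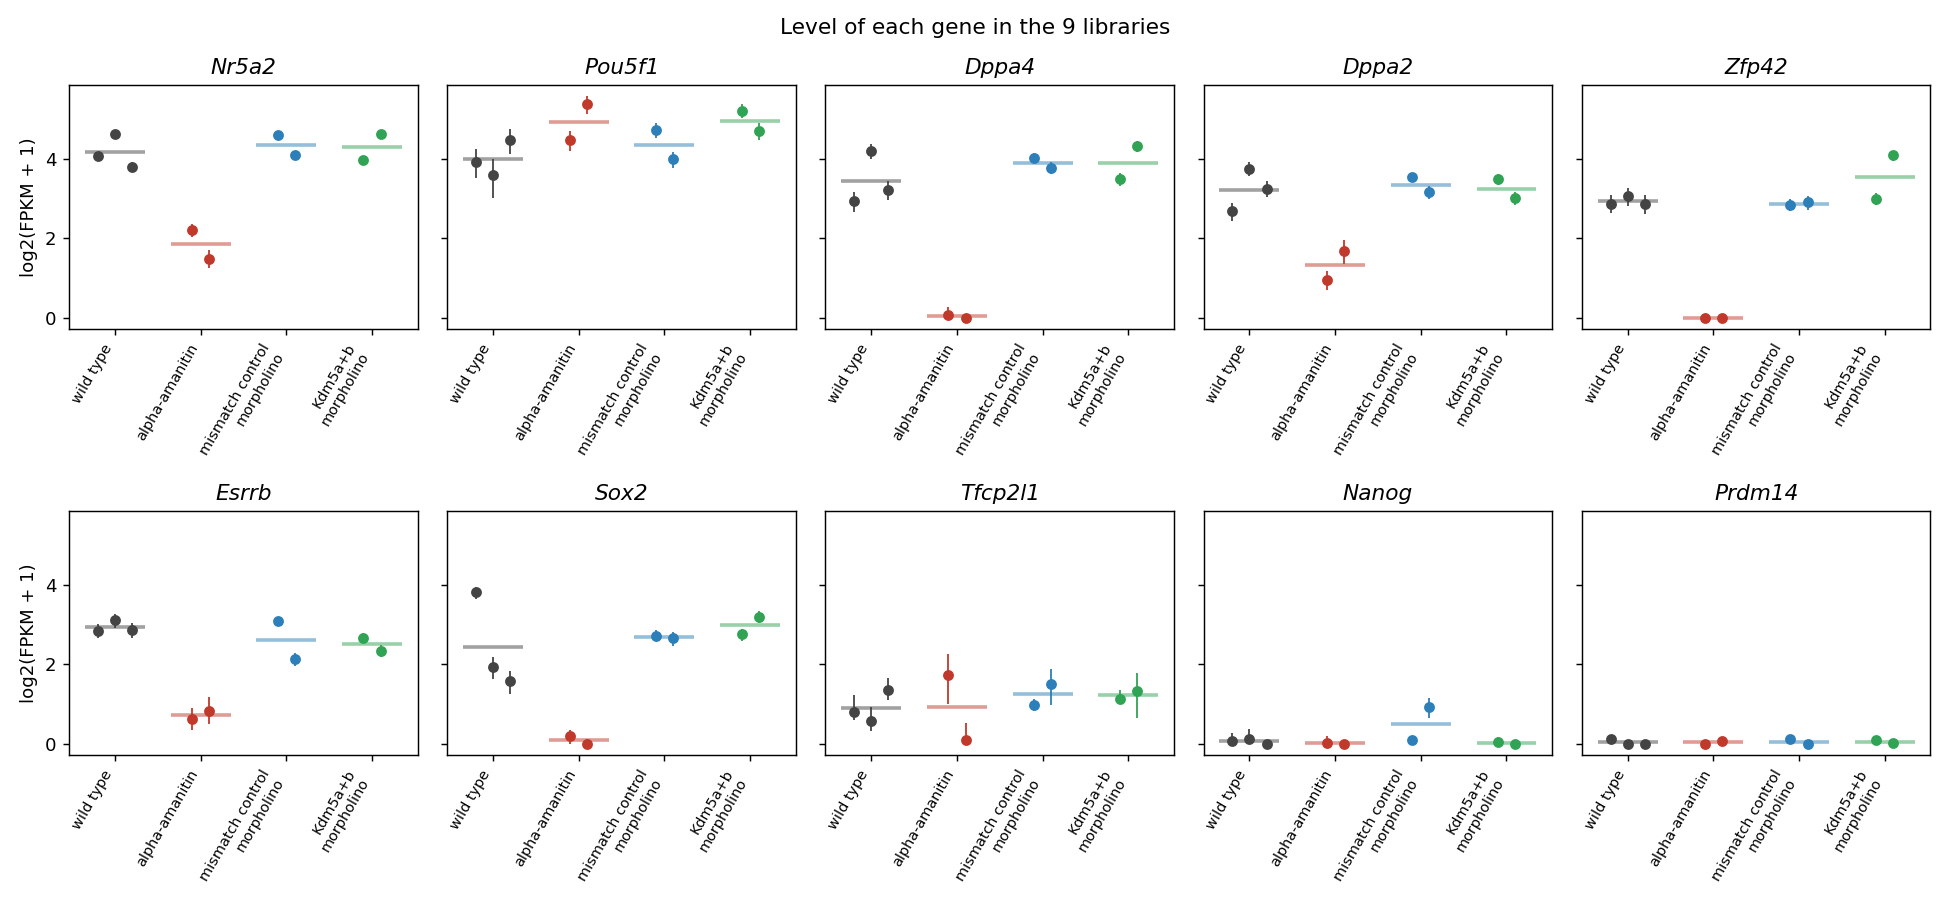
Level of each of the 10 genes in the 9 libraries, as log2(FPKM + 1) on the vertical axis, in the order of the wild-type mean. Points are libraries, vertical lines the authors' lower and upper bounds and horizontal lines group means. Both alpha-amanitin libraries list Zfp42 at 0, whereas Pou5f1 stood at 21.1 and 40.6 FPKM, and Nanog and Prdm14 lay near 0 in nearly every library.

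The files give a lower and an upper bound for each level, and all 10 genes lay inside their bounds in all 9 libraries. The bounds cover the quantification of single libraries only, not the spread between embryos. Among the 6 pairs within a group, they did not overlap in 6 pairs for Nr5a2 and Dppa2 and 4 for Pou5f1 and Prdm14. They were apart in 3 pairs for Sox2 and Dppa4, 2 for Esrrb and Tfcp2l1, and 1 for Nanog and Zfp42. Each such pair for Prdm14 set a level of at most 0.0848 FPKM against a library listed at 0 with both bounds at 0. The level of Sox2 was 13.0 FPKM in wild-type replicate 1 and 2.81 and 1.96 FPKM in the other 2, a coefficient of variation of 104% in wild type against 21.7% over the 4 injected libraries. Zfp42 showed the reverse, with 8.74% in wild type and 52.9% over the injected libraries. The authors' quantification status of Sox2 was LOWDATA in all 9 libraries, as for 703 genes in every table, so its bounds and level are less certain than those of the other 9 genes, whose status was OK.

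The alpha-amanitin comparison asks which of these transcripts depend on transcription in the embryo. Compared with wild type, 6 of the 10 genes were lower (Dppa4, Zfp42, Sox2, Nr5a2, Esrrb and Dppa2) and none higher by limma's test (adjusted p under 0.05). Over all 13137 genes tested, 25.1% were lower and 4.31% higher. Pou5f1 and Tfcp2l1 did not pass, and Nanog and Prdm14 were below the filter of 1 FPKM in 2 libraries and were not tested, so 8 genes entered the test. The median difference of the 8 was -2.27 in log2(FPKM + 1), beside -0.56 over all genes tested. The share lower depends on level. With a filter of 5 FPKM in 2 libraries, 37.9% of 7933 genes were lower and 7.27% higher, and the same 6 genes were called. All 6 genes that fell had no overlap between the groups, as had 41.1% of all genes tested in that direction. The exact permutation p of each was 0.1, the smallest that 2 against 3 libraries allow. When every library was forced to one distribution of values (quantile normalization), the calls over all genes became 13.7% lower and 13.1% higher. The median of all genes moved to 0.17 and that of the 8 to -1.24, and the calls were then Dppa4, Zfp42 and Nr5a2 lower and Pou5f1 higher.

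Dppa4 and Dppa2 lie side by side on mouse chromosome 16 (mm10, 48283735 to 48294292 for Dppa4 and 48310477 to 48319723 for Dppa2, both on the plus strand). Dppa4 was at 6.64, 17.3 and 8.32 FPKM in wild type and at 0.0518 and 0 FPKM with alpha-amanitin. The treated libraries were far below all 3 wild-type libraries, and the difference in log2(FPKM + 1) was -3.41 (SE 0.48, limma adjusted p = 0.000384). Dppa2 was at 5.45, 12.45 and 8.50 FPKM in wild type and at 0.944 and 2.20 FPKM with alpha-amanitin. It fell 5.59-fold, from 8.80 ± 3.51 (SD, n = 3) to 1.57 ± 0.891 FPKM (SD, n = 2), with a difference of -1.91 (SE 0.46, limma adjusted p = 0.00974). The neighbours ended at unequal levels. The ratio of Dppa4 to Dppa2 was 1.22, 1.39 and 0.979 in wild type, 0.998 to 2.67 in the injected libraries, and 0.0549 and 0 with alpha-amanitin, a difference that was not tested. In the wild-type libraries both genes were highest in replicate 2 and lowest in replicate 1. The call of Dppa2 was lost without alpha-amanitin replicate 1 (limma adjusted p = 0.0745) and after quantile normalization (limma adjusted p = 0.186).

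The nuclear receptor genes fell together. Nr5a2 (mm10 chromosome 1, 136843584 to 136960427, minus strand) was at 15.8, 23.9 and 12.9 FPKM in wild type and at 3.62 and 1.81 FPKM with alpha-amanitin. It fell 6.45-fold, with a difference of -2.32 (SE 0.41, limma adjusted p = 0.00177), and was the only one of the 6 whose transcript stayed above 1 FPKM in both treated libraries. Esrrb (mm10 chromosome 12, 86361117 to 86521628, plus strand) was at 6.17, 7.59 and 6.22 FPKM in wild type and at 0.526 and 0.764 FPKM with alpha-amanitin. That was a 10.3-fold fall with no overlap, and a difference of -2.22 (SE 0.45, limma adjusted p = 0.004). After quantile normalization the Esrrb difference was -1.11 and the call was lost (limma adjusted p = 0.0884).

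Zfp42 (mm10 chromosome 8, 43295068 to 43307009, minus strand) had the tightest wild-type values of the genes that fell, at 6.33, 7.35 and 6.35 FPKM. Both alpha-amanitin libraries list it at 0, so no fold is given. The fitted difference was -2.94 (SE 0.45, limma adjusted p = 0.000677) and grew to -6.08 with a pseudocount of 0.1, since a value of 0 takes its distance from the pseudocount. Sox2 (mm10 chromosome 3, 34650405 to 34652461, plus strand) was at 0.141 and 0 FPKM with alpha-amanitin, below all 3 wild-type libraries, of which replicate 1 was the highest. Its difference was -2.34 (SE 0.63, limma adjusted p = 0.0183). The call was lost when either alpha-amanitin library was left out (limma adjusted p = 0.0618 without replicate 1 and 0.085 without replicate 2), without the filter on low values (0.081), after quantile normalization (0.0965) and with a fit of only the 5 libraries compared (0.0742).

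Pou5f1 (mm10 chromosome 17, 35506018 to 35510772, plus strand) stood apart from these 6 genes. It was at 14.2, 11.0 and 21.1 FPKM in wild type and at 21.1 and 40.6 FPKM with alpha-amanitin. The lower treated library lay at the level of the highest wild-type library, and the groups overlapped. The mean was 2.0-fold that of wild type, with a difference of 0.93 (95% interval 0.02 to 1.83, SE 0.41), which did not pass limma's test (adjusted p = 0.116). After quantile normalization the difference was 1.37 and passed (limma adjusted p = 0.0345). Across all alternatives it ranged from 0.47 to 1.39, with the lowest value without alpha-amanitin replicate 2. FPKM is relative to each library's total. The oocyte markers also summed higher with alpha-amanitin, to 954 and 1060 FPKM against 521 to 618 FPKM in wild type. That sum leans on the most abundant markers. Bmp15 went from a mean of 200.5 to 475.1 FPKM and Oosp1 from 234.7 to 323.7 FPKM. Of the 9 markers tested, only Bmp15 passed limma's test as higher (adjusted p = 0.00121) and 8 did not pass. Their median difference was 0.47, with Zp3 at 0.01 and H1foo at -0.17. Whether the amount of Pou5f1 transcript per embryo changed was not tested. The ratio of Nr5a2 to Pou5f1, which was 1.11, 2.17 and 0.615 in wild type, was 0.172 and 0.0447 with alpha-amanitin.

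Tfcp2l1, Nanog and Prdm14 gave no difference that could be read. Tfcp2l1 was at 0.728, 0.473 and 1.53 FPKM in wild type and at 2.33 and 0.073 FPKM with alpha-amanitin, so the treated libraries lay on both sides of the wild-type range. Its difference was 0.02 (95% interval -1.2 to 1.25) and its sign depended on the setting and on the library left out. Nanog was at 0.0421, 0.0756 and 0 FPKM in wild type and at 0.00891 and 0 FPKM with alpha-amanitin. Prdm14 was at 0.0848, 0 and 0 FPKM in wild type and at 0 and 0.0491 FPKM with alpha-amanitin. Both genes were near 0 in either group, at levels too low to show a fall.

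**Figure D2:**
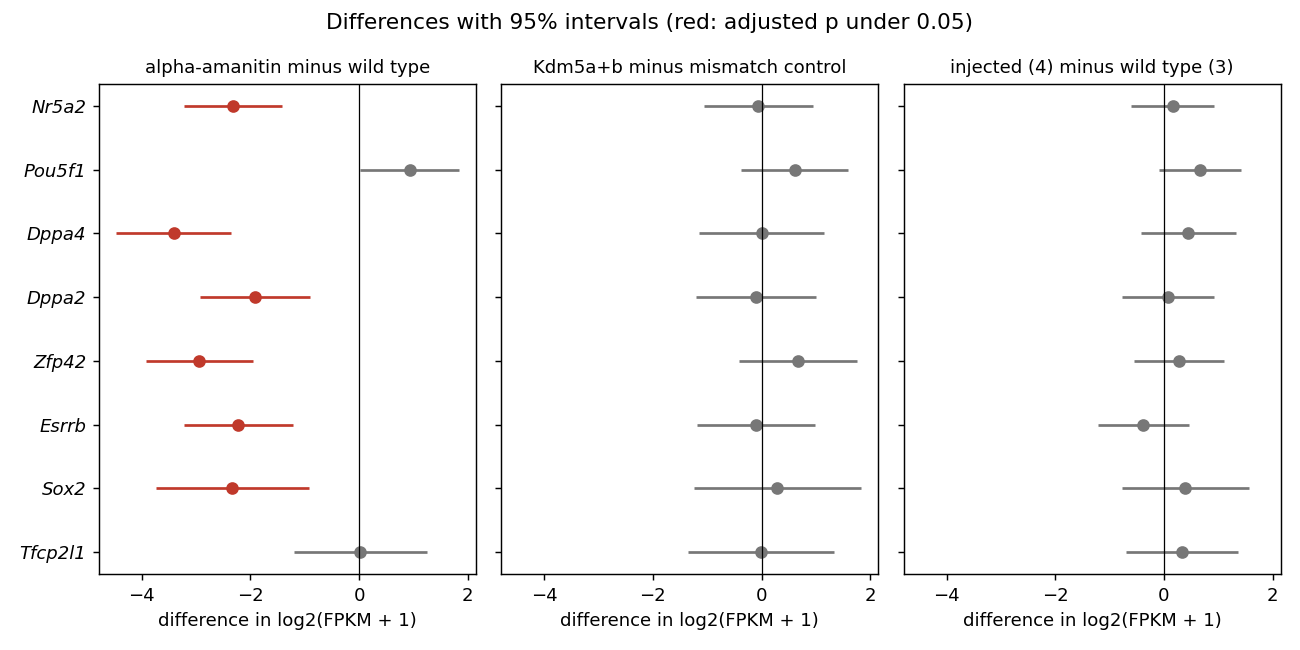
Difference in log2(FPKM + 1) on the horizontal axis for the 8 tested genes in 3 comparisons, with 95% intervals from limma; red marks an adjusted p under 0.05. With alpha-amanitin 6 genes lay between -3.41 and -1.91, and Pou5f1 lay at 0.93. All intervals of the other 2 comparisons included 0.

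**Figure D3:**
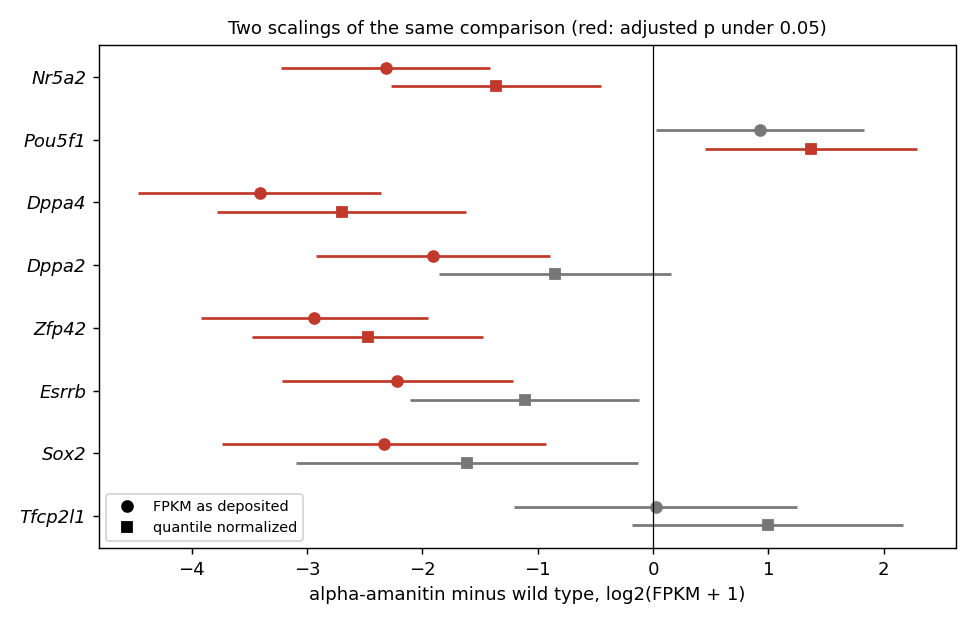
Difference between alpha-amanitin and wild type in log2(FPKM + 1) for the 8 tested genes, with 95% intervals, from the FPKM as deposited (circles) and after quantile normalization (squares); red marks an adjusted p under 0.05. All 8 differences were higher after quantile normalization, and Esrrb, Sox2 and Dppa2 lost their calls while Pou5f1 gained one.

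The list of other pluripotency factors held transcription factors and some other regulators, such as Lin28a, Lin28b and Trim71. Of 27 tested, 13 fell with alpha-amanitin, 14 did not pass and none rose, beside 25.1% lower and 4.31% higher over all genes. The median difference was -1.32, beside -0.56 over all genes (quantile normalization, 11 lower, none higher and -0.78). Gabpa, an ETS factor required in early embryos, was at 80.7, 125.6 and 102.7 FPKM in wild type and at 1.73 and 1.02 FPKM with alpha-amanitin, a difference of -5.44. Klf5, a Krüppel-like factor of the naive state, fell from 54.4, 34.6 and 32.4 FPKM to 0.0806 and 0.500 FPKM (difference -4.99). Tbx3 (-4.34) and Zfp296 (-4.07) were the next by size. Lin28a, an RNA-binding protein of pluripotent cells, stood at 33.5 to 47.4 FPKM in wild type and at 54.2 and 47.6 FPKM with alpha-amanitin and did not pass (limma adjusted p = 0.461). Rif1, also named after its values were seen, had a difference of 2.25 that rests on a 0 in wild-type replicate 2 whose status was FAIL, a failed estimate.

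Among the other Dppa and embryonic stem cell genes 6 of 12 tested fell, 6 did not pass and none rose, beside the same 25.1% and 4.31% over all genes, with a median of -1.43 (quantile normalization, 5 lower, 1 higher and -0.88). Fbxo15, an F-box gene active in stem cells, fell from 72.0, 93.8 and 107.2 FPKM to 0.956 and 3.10 FPKM (difference -5). L1td1 (-4.74), which encodes an RNA-binding protein, Slc2a3 (-2.96), a glucose transporter, and Mkrn1 (-2.72), a ubiquitin ligase, also fell. Dppa3, the maternal gene also called Stella, was at 439.3, 707.9 and 533.8 FPKM in wild type and at 185.3 and 330.0 FPKM with alpha-amanitin. Its difference was -1.15 (SE 0.26, limma adjusted p = 0.00712), so it fell but stayed among the abundant transcripts. Dppa3 and Lin28a were named after their values were seen.

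The signalling genes around pluripotency did not move one way. Of 26 tested, 7 fell and 3 rose, near the background of 25.1% lower and above that of 4.31% higher, and the median was 0.06 (quantile normalization, 3 lower, 7 higher and 0.63). The counts were 4 lower and 2 higher without alpha-amanitin replicate 1, 7 lower and 1 higher without replicate 2, and 6 lower and 5 higher without wild-type replicate 1. Socs3 (-2.99) and Dusp6 (-2.93), feedback inhibitors of the STAT3 and ERK pathways, fell to 0.0949 FPKM or less in both treated libraries. Such inhibitors did not all fall. Spry4, also a feedback inhibitor of ERK, rose from 224.9, 151.7 and 194.9 FPKM to 336.2 and 373.4 FPKM. Its difference was 0.91 (limma adjusted p = 0.00945), and it was named after its values were seen. Acvr2a, an activin receptor, fell by 2.34 on the log2 scale, a call lost after quantile normalization (limma adjusted p = 0.0671). Smad5, a transducer of BMP signals, was at 1.20, 0.603 and 0.909 FPKM in wild type and at 24.5 and 5.60 FPKM with alpha-amanitin, a rise of 2.78 whose call was lost without alpha-amanitin replicate 1 (1.81, limma adjusted p = 0.138) and without the filter on low values (0.0775).

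Relatives of the 10 genes (other POU, SOX, nuclear receptor, grainyhead-like, PRDM and YY1 genes) gave 6 lower and none higher of 26 tested, with a median of -1.09 (quantile normalization, 3 lower, 1 higher and -0.44). That count is near the background of 25.1% lower, and without alpha-amanitin replicate 2 it was 3 lower. Nr2c2 and Yy1, the gene from which Zfp42 arose by retrotransposition, each fell by 3.53. Yy1 went from 28.1, 33.7 and 29.0 FPKM to 1.61 and 1.78 FPKM. Prdm15 (-1.83) and Pou3f1 (-1.82) fell too, and both calls were lost when either alpha-amanitin library was left out (limma adjusted p = 0.0548 to 0.0639) and after quantile normalization (-0.91 and 0.15 for Prdm15, -1.11 and 0.0862 for Pou3f1). Esrrg, a paralog of Esrrb, was at 17.0, 7.81 and 23.5 FPKM in wild type and at 33.5 and 25.6 FPKM with alpha-amanitin, which did not pass (limma adjusted p = 0.131; named after its values were seen). Partners of PRDM14, OCT4 and NANOG gave 9 lower and 2 higher of 23, beside 25.1% lower and 4.31% higher over all genes. Their median was -0.84 (quantile normalization, 5 lower, 2 higher and -0.38). With a filter of 5 FPKM in 2 libraries they gave 10 lower and 2 higher of 22, beside 37.9% and 7.27% over all genes. The counts were 7 lower and none higher without alpha-amanitin replicate 1, 7 lower and 1 higher without replicate 2, and 8 lower and 1 higher without wild-type replicate 3. Hdac1 (-4.94) and Mta2 (-3.99) of the NuRD complex and Smarcc1 (-2.54) of the BAF complex fell. These complexes did not move as a whole. Chd4 of NuRD rose from 28.4, 36.1 and 25.25 FPKM to 65.2 and 62.7 FPKM (1.09, limma adjusted p = 0.0219). Rbbp4 (-2.13) and Rbbp7 (-1.44) fell, whereas Hdac2 (-0.72), Mta1 (0.53), Mbd3 (0.02), Gatad2b (-0.19) and Smarca4 (-0.84) did not pass. The genes from Chd4 to Smarca4 were named after their values were seen. Ogt (-2.21) fell as well, but without alpha-amanitin replicate 1 its difference was -1.06 and the call was lost (limma adjusted p = 0.0963), as it was after quantile normalization (-1.31, 0.0873), without the filter on low values (0.0808) and with only the libraries compared (0.0679).

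The stage lists framed these values. Of 22 tested 2-cell genes 16 fell, 6 did not pass and none rose, beside 25.1% lower over all genes, with a median of -2.6 (quantile normalization, 16 lower, none higher and -1.89), led by Ubtfl1 (-5.48), Tdpoz1 (-5.15), Zfp352 (-4.76) and Tcstv3 (-4.71). The first lineage factors gave 5 lower and none higher of 15, with a median of -0.54 (quantile normalization, 3 lower, 2 higher and -0.02), led by Hand1 (-2.51), Gata2 (-2.45), Wwtr1 (-2.34) and Tead4 (-2.16). Over all genes 25.1% were lower, and the list gave 3 lower of 14 when either alpha-amanitin library was left out. The Tead4 call was lost in those fits (limma adjusted p = 0.0697 and 0.081), without the filter on low values (0.0739) and after quantile normalization, where its difference was -1.16 (0.125).

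**Figure D4:**
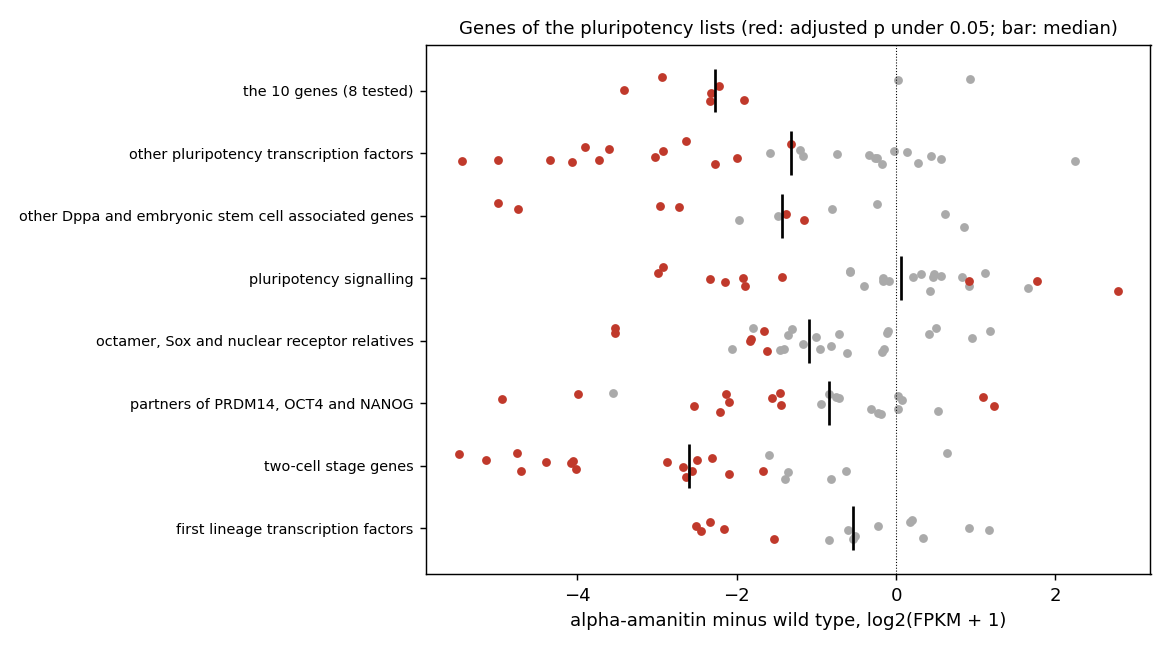
Difference between alpha-amanitin and wild type in log2(FPKM + 1), on the horizontal axis, for the tested genes among the 10 and in 7 gene lists. Each point is a gene, red where the adjusted p was under 0.05, and the bar is the median. The 8 tested genes had a median of -2.27, between that of other pluripotency factors (-1.32) and that of 2-cell genes (-2.6).

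The comparison of Kdm5a+b morpholinos with mismatch control morpholinos asks whether these transcripts depend on the H3K4 demethylases, with injection matched. None of the 10 genes passed limma's test (0 of 8 tested; 0.0% of all genes tested were called in either direction, and 3.15% had an unadjusted p under 0.05, none of the 8 among them). The median difference of the 8 and that of all genes tested both rounded to 0.0. Zfp42 was at 6.20 and 6.49 FPKM in the controls and at 7.02 and 16.0 FPKM with Kdm5a+b morpholinos. The groups did not overlap, and the difference of 0.67 had a 95% interval of -0.41 to 1.75. Pou5f1 was at 25.3 and 14.8 FPKM in the controls and at 36.1 and 25.2 FPKM with Kdm5a+b morpholinos, with 1 Kdm5a+b library just under the higher control and a difference of 0.61 (-0.38 to 1.6).

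Sox2 was at 5.58 and 5.26 FPKM in the controls and at 5.71 and 8.18 FPKM with Kdm5a+b morpholinos, again without overlap, with a difference of 0.29 (-1.25 to 1.83). Nanog was at 0.0652 and 0.887 FPKM in the controls and at 0.0272 and 0 FPKM with Kdm5a+b morpholinos, so its groups did not overlap either, with the control level set by 1 library. Groups without overlap were found in 33.3% of all genes tested, and the smallest exact permutation p that 2 against 2 libraries allow is 0.333. Nr5a2 was at 23.3 and 16.3 FPKM against 14.8 and 23.5 FPKM, and its difference was -0.06 (-1.05 to 0.94). The differences were -0.1 (-1.19 to 0.99) for Esrrb, -0.1 (-1.21 to 1.01) for Dppa2, 0.0 (-1.15 to 1.15) for Dppa4 and -0.01 (-1.35 to 1.33) for Tfcp2l1. Dppa4 was at 15.2 and 12.8 FPKM in the controls and on both sides of these, at 10.2 and 19.0 FPKM, with Kdm5a+b morpholinos. The intervals allow differences of up to about 1 in log2(FPKM + 1) or more in either direction for most of these genes, so smaller effects were not detectable with 2 libraries a group. In the 7 gene lists 0 genes passed limma's test. The smallest unadjusted p-values were of Bmp4 (0.0272, difference 1.22) and Nr6a1 (0.0421, difference -0.75), each with an adjusted p of 1.0 by limma.

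The 4 morpholino-injected libraries were compared with the 3 wild-type libraries to ask whether injection itself goes with other levels. These are the same wild-type libraries as in the alpha-amanitin comparison. None of the 10 genes passed limma's test (0 of 8 tested; 0.0% of all genes tested were called in either direction, and 6.87% had an unadjusted p under 0.05, none of the 8 among them). All 10 genes overlapped between the groups, whereas 8.21% of all genes tested did not. The median difference of the 8 was 0.3, beside -0.0 over all genes. Pou5f1 had the largest difference at 0.66 (95% interval -0.09 to 1.42, limma adjusted p = 0.751), with 25.3 ± 8.67 FPKM (SD, n = 4) after injection and 15.4 ± 5.14 FPKM (SD, n = 3) in wild type. Its exact permutation p was 0.143, where 4 against 3 libraries allow 0.0286 at the least.

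Dppa4 was at 10.2 to 19.0 FPKM after injection, with a difference of 0.45 (-0.43 to 1.33), and Dppa2 at 7.11 to 10.6 FPKM, with 0.07 (-0.77 to 0.92). Sox2 differed by 0.39 (-0.78 to 1.57), Tfcp2l1 by 0.33 (-0.69 to 1.36), Zfp42 by 0.27 (-0.55 to 1.1) and Nr5a2 by 0.16 (-0.6 to 0.92). Esrrb was the only one of the 8 with a mean below wild type, 5.08 ± 1.84 FPKM (SD, n = 4) against 6.66 ± 0.810 FPKM (SD, n = 3), a difference of -0.38 (-1.21 to 0.46). Tfcp2l1 lay between 0.979 and 1.81 FPKM in the injected libraries. Prdm14 stayed at or under 0.0848 FPKM in all 9 libraries. Nanog reached its highest level of any library, 0.887 FPKM, in mismatch control replicate 2.

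For the 7 genes that averaged at least 5 FPKM in wild type, the genes most alike in pattern were taken by Pearson's r of log2(FPKM + 1) over the 9 libraries, among tested genes within 2-fold of the gene's wild-type mean. Except for those of Pou5f1, the matches named here also had lower levels with alpha-amanitin, so the correlations largely share that contrast and carry no p. The closest to Dppa4 were Irgq (r = 0.992) and Hexim1 (0.99), to Dppa2 Nup107 (0.99), to Nr5a2 Tle4 (0.991) and Arid3a (0.989), to Esrrb Gja1 (0.984), and to Zfp42 Plekhg5 (0.991) and Med29 (0.99). Med29 stood at 29.9 FPKM in Kdm5a+b replicate 2, where Zfp42 was highest, against 12.0 to 18.8 FPKM in the other untreated or injected libraries. Sox2 was matched by Mapk11 (0.981), which, like Sox2, stood highest in wild-type replicate 1. The matches were chosen over these same libraries, so such shared high values are part of the choice and no separate result. Pou5f1 had the weakest best match, Mid1 (0.897), followed by Prdx2 (0.887), which was at 24.2, 22.1 and 29.3 FPKM in wild type and 44.1 and 67.1 FPKM with alpha-amanitin.

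Some rows of these genes share sequence or position with others. Gm19553 lies antisense over Pou5f1 and was at 0.152 to 3.59 FPKM, highest in alpha-amanitin replicate 2, the library with the highest Pou5f1. The sources used here do not say whether the authors' counting used strand, so reads of the pair may not be told apart. Sox2 lies inside Sox2ot, a long noncoding RNA gene, which was at no more than 0.904 FPKM. RefSeq names 7 pseudogene copies of Pou5f1, of which 1 (Gm6539) has a row in the files, at no more than 0.126 FPKM. Of 2 Nanog pseudogenes, Nanog-ps1 was at 5.08 FPKM in alpha-amanitin replicate 1 and listed at 0 in the other 8 libraries, and Nanog-ps2 was listed at 0 in all 9. RefSeq also names a Zfp42 copy, Zfp42-ps1, with no row here. The levels of Pou5f1, Nanog and Zfp42 are uncertain to the extent that reads of such copies were assigned to them.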

How the data were processed

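RNA-seq was analysed in 9 mouse late 2-cell libraries; other assays of the series are not analysed here. Per the file headers, the authors deposited 1 table per library in the Cufflinks layout, with FPKM, its bounds and a status for 32287 genes. Per the submitters' processing notes, the build was mm10 and the tools, listed without roles, were BWA, Picard, Cufflinks, Trimmomatic, Bismark 12.5 and SAMtools. Which of them aligned these reads, and the annotation, is not given in the sources used here. FPKM is relative to each library's total, and read depth is unknown. Starts were written counting from 1.

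Differences in log2(FPKM + 1) were tested with limma 3.58.1 (R 4.3.3): 1 model with group as its term over 9 libraries, eBayes with a trend, 13137 genes at 1 FPKM or more in 2 libraries, two-sided, with Benjamini-Hochberg adjusted p under 0.05 over all of them. Permutation tests were exact and two-sided on log2(FPKM + 1). The script was tested on simulated data.

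The 10 genes and the gene lists were chosen with earlier results of these data known. All 10 are named, plus the 4 called genes with the largest change per list and the 2 smallest p-values in the morpholino comparison; exceptions are said to be named after their values were seen. Alternatives were other pseudocounts, filters, scalings, weights and fits, a replicate block, and leaving out each library. Motifs were searched in RefSeq windows.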

Additional observations from a re-analysis of the deposited data

Results flagged for a closer look

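Among the 4 morpholino-injected libraries, 3 of the 10 genes had 1 library beyond Dixon's 95% critical value for 4 samples. Chance flags about 1 in 20 such groups only where values are normal and come from 1 group. The values here were FPKM without a log, and the share flagged over all genes was not measured. The count therefore shows no excess among these genes. These 4 libraries are 2 groups by their labels. Zfp42 was at 16.0 FPKM in Kdm5a+b morpholino replicate 2, against 7.02 FPKM in the next highest, a gap of 0.916 of the whole range. Sox2 was at 8.18 FPKM in the same library, against 5.71 FPKM, a gap of 0.845 of the range. Nanog was at 0.887 FPKM in mismatch control replicate 2, against 0.0652 FPKM, a gap of 0.926 of the range. The remaining groups hold 2 or 3 libraries and were not examined in this way.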

How the results depend on the processing

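With alpha-amanitin, limma called 4 to 6 of the 10 genes under every alternative run. Dppa4, Zfp42 and Nr5a2 were lower and called in all of them; Sox2, Esrrb and Dppa2 kept their direction. Over 143 values of single genes, 128 kept direction and call, 8 lost a call, 1 gained one and 6 reversed, all of Tfcp2l1: -0.5 with a pseudocount of 0.1, -0.17 as TPM, -0.04 with array weights, and -0.8 to 0.84 over libraries left out. The fitted size of genes at 0 depends on the pseudocount: with 0.1, Dppa4 reached -6.34 and Sox2 -4.78. Over all genes, limma called 288 to 1716 higher, beside 566, and 1806 lower after quantile normalization, beside 3299.

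No alternative called any of the 10 genes in the other 2 comparisons, although without the filter on low values limma called 27 genes for Kdm5a+b against control and 11 for injected against wild type, beside 0. Small differences there changed sign. For Kdm5a+b against control, Tfcp2l1 was 0.0035 with a pseudocount of 0.1, and Dppa4 was -0.003 with a pseudocount of 0.1, -0.0031 after quantile normalization and -0.08 as TPM. Over libraries left out the ranges were -0.38 to 0.26 for Nr5a2, -0.59 to 0.39 for Esrrb, -0.26 to 0.24 for Tfcp2l1, -0.33 to 0.14 for Dppa2 and -0.42 to 0.42 for Dppa4. For injected against wild type they were -0.04 to 1.08 for Sox2, -0.03 to 0.39 for Nr5a2 and -0.2 to 0.33 for Dppa2. The cause was not tested.

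The replicate numbers are shared between groups, but same-numbered libraries deviated together at r of -0.0477 to 0.041 only, so they share a number and no pairing is assumed. With a replicate block, limma called 3115 genes with alpha-amanitin, beside 3865, and 6 of the 10 genes. For injected against wild type, Sox2 became -0.04 and Nr5a2 -0.03. Only wild type has a replicate 3, so the block takes up that library. Its differences repeat those without wild-type replicate 3, with Nr5a2 at -2.5 and Sox2 at -2.77 for alpha-amanitin in both. Read depth is unknown, so levels near 0, as of Nanog and Prdm14, carry no limit of detection.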

Other observations

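The 10 genes together summed to 66.9 to 105 FPKM in the 7 untreated or injected libraries and to 28.7 and 45.5 FPKM with alpha-amanitin. Of the 10, 6 or 7 were at 5 FPKM or more in each of the 7 libraries, and 1, Pou5f1, was at that level in each alpha-amanitin library. The ratio of Nr5a2 to Esrrb was 2.08 to 5.78 in the 7 libraries and 6.88 and 2.37 with alpha-amanitin, whereas the ratio of Dppa4 to Dppa2 fell below its range in the other libraries in both. Whether these ratios differ between groups was not tested.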
